A study of Mus musculus with 81 samples.

Results

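Bone marrow-derived macrophages (BMDMs) that were cultured without any added antibody were compared between WT and H3.3 conditional knockout (cKO) mice. These are 6 of the 81 RNA-seq libraries of the study, 3 WT and 3 cKO, chosen by the words no antibody in their labels and not by any measured value. Both groups carried floxed alleles of the pair of genes that encode histone H3.3 (H3f3a fl/fl and H3f3b fl/fl, on a C57BL/6 background). The cKO mice were in addition LysM cre/cre, with cre placed in the lysozyme gene Lyz2, so that a working Lyz2 gene is missing from these cells as well and its loss cannot be told apart from that of H3.3. LysM-cre acts in cells of the myeloid lineage, so recombination can take place during the culture and need not be complete in every cell. The loxP sites flank exon 2 of H3f3a and exons 1 to 4 of H3f3b. By the methods of the study, mice of either sex were 8 to 10 weeks old, bone marrow cells were grown in medium with 20% L929-conditioned medium, a source of macrophage colony-stimulating factor, and 10% serum, and the cells of the antibody experiment were lysed on day 6. The other 12 libraries of that experiment received a control antibody or an antibody to the interferon receptor chain IFNAR1. The labels call the libraries biological replicates without naming the animals, so p-values measure the spread between these libraries.

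H3.3 is the replacement variant of histone H3. It is placed in chromatin independently of DNA replication, by the HIRA complex mainly in active genes and by the DAXX and ATRX chaperones mainly in heterochromatin and telomeres. H3f3a and H3f3b encode the same protein. Type I interferons bind the receptor made of IFNAR1 and IFNAR2, and the kinases JAK1 and TYK2 then activate STAT proteins, which join IRF9 and bind the interferon-stimulated response element (ISRE) in promoters of interferon-stimulated genes (ISGs). Many ISGs restrict viruses, while others sense nucleic acids or feed back on the pathway, and macrophages express most of them at a low level without infection.

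Counts on genes were 18680746 to 24552967 in WT and 11809833 to 17686952 in cKO libraries. Levels are given as CPM, the share of a library's gene counts that falls on 1 gene, in units of 1e-06 and with library sizes adjusted by TMM (trimmed mean of M-values). The WT libraries differed among themselves more than the cKO libraries did. The SD across genes of the log2 difference between 2 libraries was 0.563, 0.348 and 0.339 for the WT pairs and 0.211 to 0.253 for the cKO pairs. On the first principal component, with 73.7% of the variance, WT replicate 2 lay at 58.7, WT replicate 3 at 31.9, WT replicate 1 at -1.88 and the cKO libraries between -32.7 and -27.6. Actb, which encodes β-actin, had 6914, 2095 and 3167 CPM in WT and 7014, 8167 and 6549 CPM in cKO, so that WT replicates 2 and 3 stood below all the others. For many of the gene lists and some of the leading genes, values are therefore also given without WT replicates 2 and 3. WT replicate 1 is then the only WT library left, and it is taken to vary as much as the other groups do. The 8 macrophage markers, among them Csf1r, Adgre1 and Cd68, summed to 3878 to 4687 CPM in WT and 3661 to 4097 CPM in cKO, while each of 9 neutrophil, 5 T and NK cell, 5 mast cell, basophil and eosinophil and 4 erythroid markers was below 1 CPM in all 6 libraries. The 5 stromal markers, led by Col1a1 and Col1a2, summed to 13.1 to 97.2 CPM in WT and 35.2 to 77.6 CPM in cKO. Xist, which is transcribed from the inactive X chromosome of females, had 1612 to 2347 CPM in all 6 libraries.

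The letters GAAANNGAAA, a core of the ISRE, were looked for on both strands of RefSeq promoters (mouse build GRCm38.p6, 250 bases before to 50 after the transcription start), and matches that overlap each other were all kept. Of the 17191 genes tested, 10826 had a promoter in this table. Of 429 genes higher in cKO with a promoter, 15.2% held the letters, against 3.34% of 449 genes lower in cKO and 3.42% of 9948 genes that were not called. Over all 27025 genes with a promoter the share was 3.99%. The following stretches of 30 bases are read 5′ to 3′ on the strand of the gene, with 1 match of the motif in capitals. Other matches are left in lower case or not printed, such as those of Isg15 at 72 and 66 bases before the start. The match in capitals is not taken to be the element in use. They are shown because all of these genes were higher in cKO and their values follow, and a motif on the other strand reads as TTTC on the strand printed.
Ifit3: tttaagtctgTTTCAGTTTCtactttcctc
Ifit1: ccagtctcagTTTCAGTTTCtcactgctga
Rsad2: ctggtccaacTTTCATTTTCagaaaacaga
Oas1a: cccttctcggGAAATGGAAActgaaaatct
Isg15: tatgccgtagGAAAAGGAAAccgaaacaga
Ifi213: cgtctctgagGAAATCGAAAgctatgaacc
Ifi211: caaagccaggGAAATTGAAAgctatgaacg
Gbp7: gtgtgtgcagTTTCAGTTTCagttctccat
Tgtp2: tccaggaatcGAAACCGAAAcctactctga
Igtp: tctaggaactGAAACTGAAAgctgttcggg
Stat2: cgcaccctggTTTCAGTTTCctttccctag
In the order printed, they lie at chr19:34583397-34583426, chr19:34640794-34640823, chr12:26456553-26456582, chr5:120907526-120907555, chr4:156200877-156200906, chr1:173599326-173599355, chr1:173913064-173913093, chr3:142530273-142530302, chr11:49064263-49064292, chr11:58199512-58199541 and chr10:128270266-128270295. All 11 begin upstream of the annotated start, between 20 and 222 bases before it for the first base of the motif.  Called members of 3 families held the letters in 12 of 20 antiviral effector genes (60%), 5 of 7 genes of the Ifi200 family (71.4%) and 8 of 9 (88.9%) guanylate-binding protein and immunity-related GTPase (IRG) genes with a promoter. The letters were held by 1 of 4 called genes of interferon signalling (25.0%) and 2 of 4 called sensor genes (50%), while none of 11 called p53 target genes did. A match describes the sequence and does not show that a factor binds there.

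Both H3.3 genes were low in the cKO libraries. H3f3a (chr1:180800832-180813943, GRCm38, GENCODE annotation) had 33.6, 55.4 and 37.1 CPM in WT and 4, 5.69 and 7.85 CPM in cKO. This was 42.0 ± 11.7 CPM (mean ± SD, n = 3) against 5.85 ± 1.93 CPM, or 13.9% of WT, with a log2 fold change of -2.85 (SE 0.38, adjusted p = 0.000615). Every cKO library lay below every WT library. H3f3b (chr11:116021912-116027962) had 335, 468 and 325 CPM in WT and 51.8, 63 and 31.8 CPM in cKO, and its mean in cKO was 13% of that in WT. The groups did not overlap here either, with a change of -2.95 (SE 0.34, adjusted p = 0.000201) on the log2 scale. The lowest H3f3b level was that of cKO replicate 3 and the lowest H3f3a level that of cKO replicate 1. Lyz2 (chr10:117277331-117282321), the gene that holds cre, fell from 11375, 5282 and 6475 CPM in WT to 15.8, 11.9 and 13.5 CPM in cKO, a log2 fold change of -9.13 (SE 0.39, adjusted p = 8.42e-10). All 3 genes were called with each of the 6 libraries left out in turn. Without WT replicates 2 and 3, the log2 fold changes were -2.54, -2.79 and -9.70, and H3f3a no longer passed (adjusted p = 0.0518). A count adds the fragments of all exons, so it does not tell which exons the transcripts left in cKO hold.

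**Figure D1:**
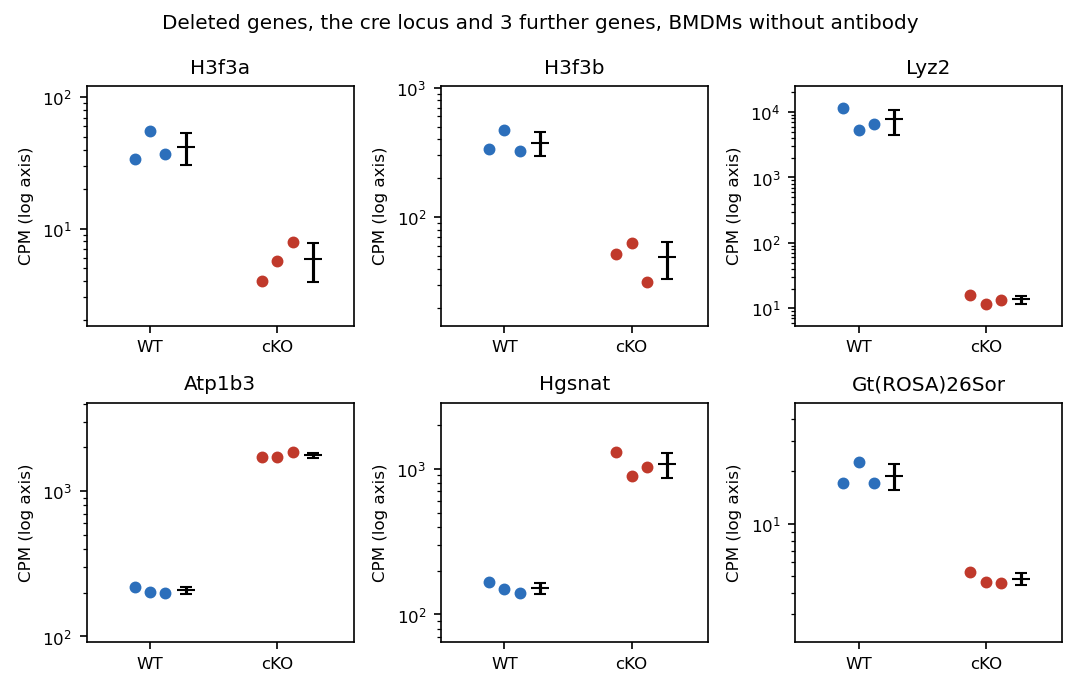
CPM of 6 genes on log axes, 1 point per library (WT blue, cKO red), with the mean and SD of 3 libraries beside the points. In each panel the 3 cKO points lie on one side of the 3 WT points, lower for H3f3a, H3f3b, Lyz2 and Gt(ROSA)26Sor and higher for Atp1b3 and Hgsnat.

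Over all genes, 580 of 17191 genes tested were higher in cKO (3.37%) and 633 were lower (3.68%) at an adjusted p under 0.05 in edgeR's quasi-likelihood test. The median size of a called change was 1.18 on the log2 scale among higher and 0.95 among lower genes, and 340 higher and 299 lower genes changed by more than 1. WT and cKO libraries did not overlap for 577 of the higher and 621 of the lower genes, where 20.2% of all genes tested had all cKO libraries above and 19.2% all cKO libraries below the WT libraries. The number of calls fell when any library but WT replicate 1 was left out, and it rose without WT replicate 1. It was 2911 (16.4% of the genes tested) without WT replicate 1, 358 (2.02%) without WT replicate 2 and 346 (1.95%) without WT replicate 3. It was 469 (2.65%), 376 (2.11%) and 425 (2.38%) without cKO replicates 1, 2 and 3. Of the higher genes 162 (0.942% of those tested) and of the lower genes 102 (0.593%) were called in all 6 of these fits as well. With both WT replicates 2 and 3 left out, 12 of the higher (0.0647%) and 13 of the lower genes (0.0701%) were still called, while all 580 and all 633 kept their direction, with a median size of 0.87 and 0.64. For the 577 higher and 621 lower genes without overlap, WT replicate 1 already lay on the same side of the cKO libraries. The kept direction of these genes is therefore not a separate test of the calls. Of 22 genes that the study names and that were tested, 5 were higher and 5 lower, which is not independent evidence since the study chose them on its own samples.

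**Figure D2:**
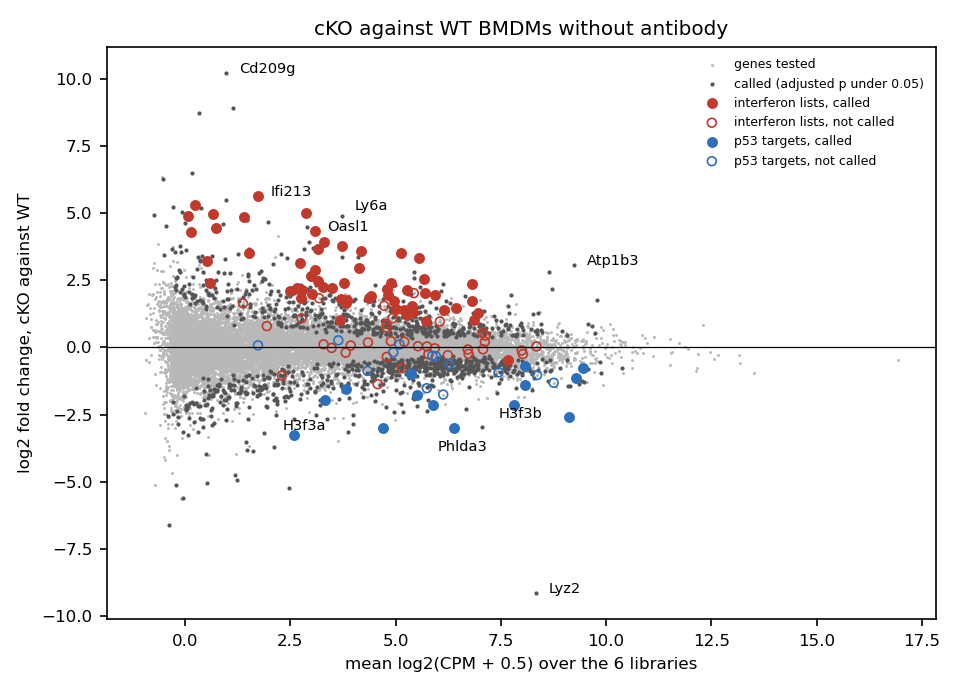
Log2 fold change of cKO against WT over the mean log2(CPM + 0.5) of the 6 libraries, 1 point per gene tested. Called members of the interferon lists (filled red) lie above 0 with the exception of Ifnar1, called p53 targets (filled blue) lie below 0, and open circles are members of these lists that were not called.

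Of the gene lists, that of antiviral effectors held the most higher genes. Of 32 genes tested in this list, 26 were higher in cKO and none was lower, with a median log2 fold change of 1.94, where the median over all genes tested was 0.01. Ifit3, which belongs to the IFIT proteins that bind foreign RNA, had 4.08, 2.87 and 1.01 CPM in WT and 66, 41.6 and 13.9 CPM in cKO. All cKO libraries were above the WT libraries, yet the cKO libraries differed from each other by several fold. Its log2 fold change was 3.93 (SE 0.52, adjusted p = 0.00061). Ifit3 and Ifit3b are near-identical copies, and reads could have been split between them. Oasl1, an OAS-like protein, had 2.48, 1.55 and 1.16 CPM in WT and 52.3, 34.3 and 19.4 CPM in cKO, with a log2 fold change of 4.35 (SE 0.39, adjusted p = 2.74e-05). It was the only member of this list that still passed without WT replicates 2 and 3 (3.82, adjusted p = 0.0231). Rsad2, which encodes viperin and makes a chain-terminating nucleotide, had 26.1, 26.9 and 14.5 CPM in WT and 189, 137 and 64.1 CPM in cKO (log2 fold change 2.53, SE 0.34, adjusted p = 0.000673). Its neighbour Cmpk2, a mitochondrial nucleotide kinase, had 7.69, 2.35 and 1.52 CPM in WT and 71.7, 59.9 and 25.4 CPM in cKO (log2 fold change 3.76, SE 0.62, adjusted p = 0.00268). Neither gene had a cKO library within the WT range.

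The remaining effectors moved the same way by different amounts. Ifi44 had 2.22, 0.988 and 0.405 CPM in WT and 62, 35.1 and 17.6 CPM in cKO, a log2 fold change of 4.99 (SE 0.67, adjusted p = 0.000626). The receptor-transporting protein gene Rtp4 had 10.5, 4.33 and 2.13 CPM in WT and 99.9, 65.7 and 37.1 CPM in cKO, a log2 fold change of 3.58 (SE 0.59, adjusted p = 0.00276). Log2 fold changes of other called members were 3.14 for Ifit1, 2.47 for the ubiquitin-like Isg15, 1.95 for Oas1a, 3.33 for Oasl2, 1.93 for the dynamin-like GTPase Mx1 and 1.78 for the ISG15 ligase Herc6. The members that were not called were Isg20, Bst2, Ifi27l2a, Ifitm3, Samd9l and Dtx3l, with log2 fold changes from 0.04 (Ifitm3) to 2.02 (Samd9l). The summed level of the list was 1192, 918 and 720.9 CPM in WT and 3417, 2646 and 1637 CPM in cKO. Replicate 1 was the highest in both groups, and the lowest cKO library was above the highest WT library. Without WT replicates 2 and 3 the median log2 fold change was 1.51, with 1 of 32 called (Oasl1). Without WT replicate 2 alone it was 1.88, with 22 higher (1.12% of all genes tested were higher in that fit).

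The Ifi200 family, DNA-binding PYHIN proteins encoded side by side on chromosome 1, was higher as well, with 8 of 9 genes tested called higher, none lower and a median log2 fold change of 2.66. Ifi213 had 0.465, 0.471 and 0.0506 CPM in WT and 31.3, 13.5 and 5.54 CPM in cKO, with few fragments in WT and a log2 fold change of 5.64 (SE 0.78, adjusted p = 0.000743). Ifi204, one of the genes the study names, had 35.5, 24.6 and 18.8 CPM in WT and 148, 99.6 and 71.8 CPM in cKO, a log2 fold change of 2.02 (SE 0.29, adjusted p = 0.000913). Ifi211 had 3.62, 3.91 and 1.87 CPM in WT and 31.8, 17.6 and 9.89 CPM in cKO, a log2 fold change of 2.66 (SE 0.43, adjusted p = 0.00227). In all 3 genes the cKO libraries lay above the WT libraries and cKO replicate 1 was the highest. No member of the family was called without WT replicates 2 and 3, where the median was 2.4. Ifi202b had 0.0516, 0.0471 and 0.0506 CPM in WT, which is 1 fragment in each library, and 2.83, 0.881 and 3.01 CPM in cKO. Mndal was the member not called (0.88 on the log2 scale). The members are similar in sequence, and counts of single members are uncertain for that reason.

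Guanylate-binding proteins and IRGs are GTPases that attack the membranes around intracellular microbes. Of 15 tested, 13 were higher and none was lower, with a median log2 fold change of 2.22. Gbp9 had 4.49, 1.32 and 1.47 CPM in WT and 37, 32.8 and 22.4 CPM in cKO, a log2 fold change of 3.66 (SE 0.53, adjusted p = 0.000985). Gbp7 had 1.03, 0.471 and 0.456 CPM in WT and 10.4, 8.41 and 3.72 CPM in cKO, a log2 fold change of 3.52 (SE 0.44, adjusted p = 0.00039). Igtp, an IRG, had 4.7, 1.88 and 2.73 CPM in WT and 16.9, 14.3 and 10 CPM in cKO, a log2 fold change of 2.14 (SE 0.36, adjusted p = 0.00302). All cKO libraries lay above all WT libraries in each of the 15, and Gbp8 and Gvin1 did not pass the test (1.08 and 1.64). Tgtp2 had 0.31, 0.0941 and 0.152 CPM in WT and 6.35, 4.41 and 1.47 CPM in cKO (log2 fold change 4.43, SE 0.62, adjusted p = 0.000874). Without WT replicates 2 and 3 the median over the list was 1.54 with none called, and without WT replicate 2 it was 2.09 with 9 higher.

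**Figure D3:**
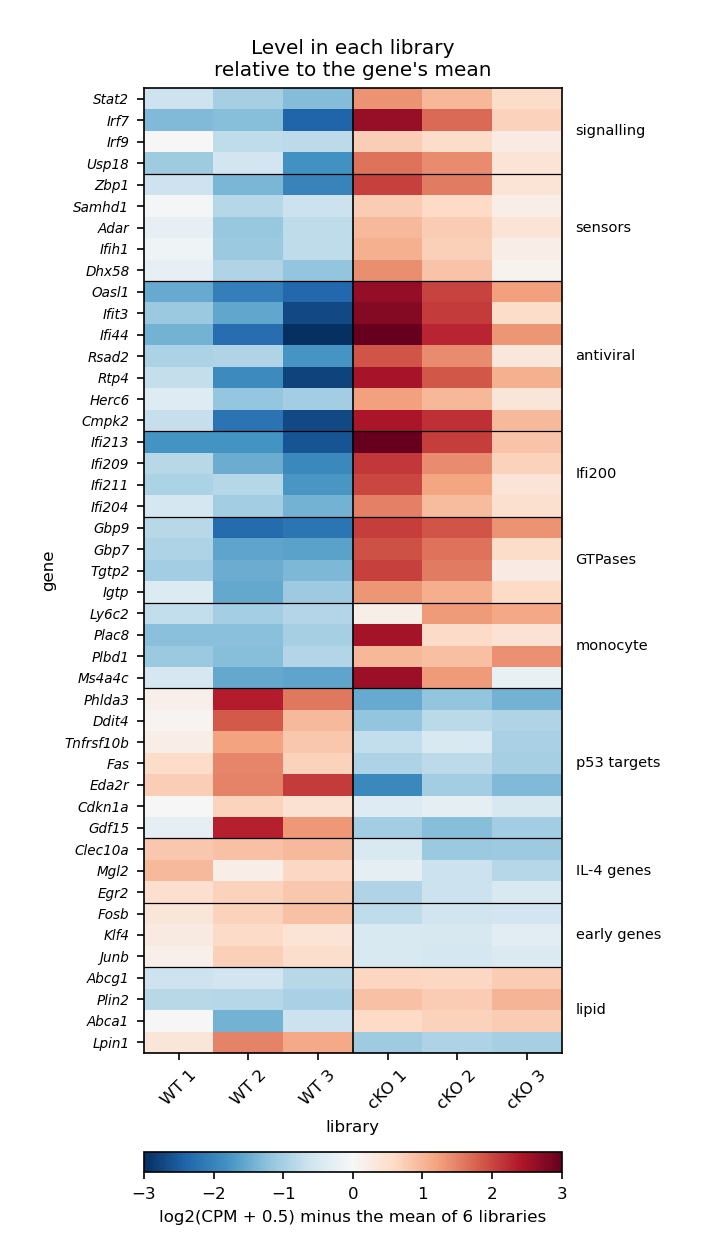
Level of selected called genes in each of the 6 libraries, as log2(CPM + 0.5) minus the mean of the gene over the 6 libraries (red above the mean, blue below), ordered by gene list. The interferon genes are red in all 3 cKO libraries and deepest in cKO replicate 1, and the p53 targets are deepest red in WT replicates 2 and 3.

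Of 20 genes of interferon signalling tested, 5 were higher and 1 was lower, with a median log2 fold change of -0.05, and no member was called without WT replicates 2 and 3. Stat2 had 38.9, 30.2 and 24.3 CPM in WT and 154, 122 and 88.4 CPM in cKO, a log2 fold change of 1.96 (SE 0.22, adjusted p = 0.000159). Irf9, which encodes a subunit of the complex that binds the ISRE, had 52.7, 30.6 and 30.3 CPM in WT and 88.4, 76.7 and 62.4 CPM in cKO, a log2 fold change of 1.0 (SE 0.23, adjusted p = 0.0174). The groups did not overlap for either gene. Irf7, the factor that amplifies interferon production, had 13.4, 13.9 and 6.08 CPM in WT and 213, 113 and 55.6 CPM in cKO (log2 fold change 3.51, SE 0.61, adjusted p = 0.00365), and the protease Usp18, which removes ISG15 and dampens receptor signalling, had a log2 fold change of 2.40 (SE 0.40, adjusted p = 0.0028). Irf7 differed by several fold among the cKO libraries, yet the lowest of them was above every WT library. The called lower gene was the receptor chain Ifnar1, with 242, 242 and 239 CPM in WT and 165, 178 and 178 CPM in cKO (log2 fold change -0.47, SE 0.12, adjusted p = 0.0326). Ifnar2 (-0.29), Jak1 (-0.24), Tyk2 (-0.03) and Irf3 (0.19) did not pass.

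Of 18 sensors of nucleic acids and their adaptors tested, 6 were higher and none was lower, with a median log2 fold change of 0.49. The median was 0.24 and no member was called without WT replicates 2 and 3. Zbp1, a sensor of Z-form nucleic acid, had 4.96, 2.78 and 1.62 CPM in WT and 34.5, 24.3 and 10.7 CPM in cKO, a log2 fold change of 2.89 (SE 0.51, adjusted p = 0.00374). Ddx58, which encodes RIG-I, had 31, 24.7 and 21.6 CPM in WT and 91.3, 75.6 and 42.7 CPM in cKO, a log2 fold change of 1.44 (SE 0.39, adjusted p = 0.0345). In both genes all cKO libraries were above the WT libraries. Ifih1 (MDA5), Dhx58 (LGP2), the RNA-editing enzyme Adar and the nucleotide hydrolase Samhd1 were also higher, by 1.33, 1.67, 1.41 and 1.02 on the log2 scale. Tmem173, which encodes STING, had 36.1, 12.9 and 15.7 CPM in WT and 45.6, 49.3 and 42.6 CPM in cKO and missed the threshold (log2 fold change 1.09, SE 0.34, adjusted p = 0.0623). Its log2 fold change was 0.33 without WT replicates 2 and 3. The adaptor gene Mavs (0.21) and the DNA sensor gene Cgas (-0.19) did not pass. Transcripts of interferons themselves were nearly absent at this depth. Of 21 interferon genes, 20 were too low to be tested, and their summed level was 0.377 to 0.413 CPM in WT and 0.351 to 0.881 CPM in cKO. The one tested, Ifnk, had a log2 fold change of 0.43 (SE 0.85, adjusted p = 0.769).

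Fewer members were called in the other lists of innate immunity. In the list of MHC class I and antigen processing 2 of 22 were higher, the transactivator Nlrc5 (log2 fold change 0.87, SE 0.17, adjusted p = 0.00838) and the peptide-trimming enzyme Erap1 (log2 fold change 0.59, SE 0.11, adjusted p = 0.00594), with a median log2 fold change of 0.32. Among 10 MHC class II genes H2-DMb2 was higher and H2-Ob lower, both from low levels (at most 3.67 CPM in any library). Of 16 chemokine genes, Cxcl10 was higher (2.84, 1.79 and 1.22 CPM in WT and 12.3, 8.09 and 2.66 CPM in cKO, log2 fold change 1.98, SE 0.50, adjusted p = 0.0257), although its lowest cKO library lay within the WT range. Cxcl1 was lower, with 8.31, 35 and 16.2 CPM in WT and 6.19, 7.53 and 7.5 CPM in cKO (log2 fold change -1.49, SE 0.40, adjusted p = 0.0339). Cxcl1 was highest in WT replicate 2, and its log2 fold change was -0.25 without WT replicates 2 and 3. Of 17 inflammatory cytokine genes, the death ligand Tnfsf10 (3.39) and the interleukin-1 receptor antagonist Il1rn (1.03) were higher, while Il1a (-1.64) and the interleukin-18 binding protein gene Il18bp (-1.42) were lower.

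Genes raised by interferon-γ were taken from separate libraries, WT BMDMs of day 8 with and without interferon-γ, at an adjusted p under 0.05 and a log2 fold change above 1. Interferon-γ shares many targets with type I interferon but signals through another receptor. Of 11960 genes tested in both experiments, 1283 were raised by interferon-γ (10.7%, and 11.3% of all genes tested in that experiment). They held 182 of the 506 genes higher in cKO (36.0%) and 59 of the 517 genes lower in cKO (11.4%). Read the other way, 14.2% of the raised genes were higher in cKO and 1042 were not called. With a log2 fold change above 2 in place of 1, interferon-γ raised 4.58% of the genes of its own experiment and 3.95% of those tested in both, and the latter held 23.1% of the higher genes and 3.68% of the lower genes.

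The list with the most lower genes was that of p53 targets. It holds genes that p53 activates after DNA damage and other stress, with roles in cell cycle arrest, apoptosis and feedback. Of 28 tested, 14 were lower in cKO and none was higher, with a median log2 fold change of -1.08. Phlda3, which restrains AKT, had 93.5, 433 and 250.3 CPM in WT and 29.1, 36.4 and 31 CPM in cKO, a log2 fold change of -3.01 (SE 0.48, adjusted p = 0.00206). Mdm2, the ubiquitin ligase of p53, had 588, 1319.6 and 939.8 CPM in WT and 421, 433 and 438 CPM in cKO, a log2 fold change of -1.14 (SE 0.27, adjusted p = 0.0184). The stress cytokine Gdf15 had 462, 2791 and 1354 CPM in WT and 266, 229 and 267 CPM in cKO, a log2 fold change of -2.60 (SE 0.69, adjusted p = 0.0333). In each of them the cKO libraries were close together and below all WT libraries, while WT replicate 2 was highest and WT replicate 1 lowest. The same order of the WT libraries held for the summed list, with 4382, 10670 and 7135 CPM in WT against 2869, 2904 and 2833 CPM in cKO. Cdkn1a, the p21 inhibitor of cyclin-dependent kinases, had 700.3, 1101 and 957 CPM in WT and 536, 572 and 499 CPM in cKO (log2 fold change -0.78, SE 0.20, adjusted p = 0.0309). The death receptor genes Fas and Tnfrsf10b were lower, with log2 fold changes of -1.96 and -1.56, as were Eda2r (-3.26) and Ddit4 (-2.12). Trp53 itself was not called (log2 fold change 0.40, SE 0.16, adjusted p = 0.135).

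The calls of p53 targets depended on which WT libraries were used. Without WT replicate 2, 5 of 28 were lower (0.903% of all genes tested were lower in that fit) and the median log2 fold change was -0.84. Without WT replicates 2 and 3 none was called and the median was -0.55, with Phlda3 at -1.55, Gdf15 at -0.87 and Cdkn1a at -0.40. WT replicates 2 and 3 are also the libraries that stood apart on the first principal component and in Actb, and the part of this in the result was not tested. Genes of the integrated stress response were lower in 3 of 20 cases, Gdf15 among them, with a median of -0.45 (-0.15 without WT replicates 2 and 3). The others were Vldlr, a lipoprotein receptor (34, 30.9 and 45.7 CPM in WT and 4.91, 7.13 and 7.22 CPM in cKO, log2 fold change -2.53, SE 0.52, adjusted p = 0.00935), and the transcription factor gene Cebpb (-0.89). Among 30 apoptosis regulators, 3 were higher and 3 lower. The higher ones were the BH3 protein gene Bid (1.12), the pore former gene Bak1 (0.41) and Tnfsf10, and the lower ones were Fas, Tnfrsf10b and Apaf1 (-0.50). Bcl2l11, which encodes BIM, was not called (log2 fold change 0.22, SE 0.14, adjusted p = 0.293).

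Genes of proliferation and DNA metabolism gave few calls. None of 30 mitotic genes was called by edgeR's quasi-likelihood test or by DESeq2 or had an unadjusted p under 0.05, with a median log2 fold change of -0.33. All cKO libraries lay below all WT libraries for 15 of the 30 (19.2% over all genes tested), and a fit of the 6 libraries alone called 2 of them lower (5.1% of all genes tested were lower in that fit). Mki67, a marker of cycling cells, had 559.9, 536 and 532 CPM in WT and 422, 403 and 267 CPM in cKO (log2 fold change -0.58, SE 0.42, adjusted p = 0.381), and the low value was that of cKO replicate 3. In the list of nucleotide synthesis genes, Pfas, a step of purine synthesis, was higher (0.95) and Impdh1, the first step of guanine nucleotide synthesis, was lower. Impdh1 had 69.6, 85.9 and 89.7 CPM in WT and 58.8, 49.9 and 45.9 CPM in cKO (log2 fold change -0.66, SE 0.17, adjusted p = 0.0247). Other genes of this pathway that the study names were not called, with log2 fold changes of -0.17 for Tk1, -0.46 for Adssl1, -0.11 for Uprt, -0.37 for Gmpr and -0.51 for Paics. Of 32 DNA damage response genes, the kinase gene Atm (0.50), Trp53bp1 (0.44) and Xrcc5 (1.90) were higher and none was lower. The median of the list was 0.06, and -0.04 without WT replicates 2 and 3. None was called without WT replicate 2 alone or WT replicate 3 alone, where 2.02% and 1.95% of all genes tested were called. A fit of the 6 libraries alone called 1 higher and 1 lower. Xrcc5 was low in all libraries (at most 1.39 CPM).

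Of the other histone genes and the chaperones of H3.3, 1 gene was called. None of 13 chaperone genes was called by edgeR or DESeq2 or had an unadjusted p under 0.05, and their log2 fold changes lay between -0.31 and 0.19, with Hira at -0.07. Genes of the replication-coupled histones H3.1 and H3.2, which supply most H3 in dividing cells, had positive log2 fold changes in all 10 tested, with a median of 1.02, none called by edgeR, 4 at an unadjusted p under 0.05 and 1 called by DESeq2. Hist1h3a had 32.6, 8.99 and 9.72 CPM in WT and 33.4, 50.4 and 39 CPM in cKO, a log2 fold change of 1.26 (SE 0.49, adjusted p = 0.123). WT replicate 1 was at the level of the cKO libraries and WT replicates 2 and 3 were lower. The median of the list was 0.10 without WT replicates 2 and 3, and 9 of 10 were higher without WT replicate 1, where 8.71% of all genes tested were higher. Of 8 genes of other histone variants only H2afy (macroH2A1) was called (log2 fold change 0.62, SE 0.17, adjusted p = 0.0411). Of 21 genes of heterochromatin and retroelement silencing only Morc3 was called (log2 fold change 0.41, SE 0.11, adjusted p = 0.0342).

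Most macrophage identity genes did not pass the test. Of 29 tested, 3 were higher and 2 lower, and Adgre1, which encodes F4/80, had 808, 1071 and 771 CPM in WT and 942, 957 and 928 CPM in cKO (log2 fold change 0.09, SE 0.18, adjusted p = 0.754). The groups overlapped for Adgre1. No gene of this list was called without WT replicate 2 alone or without WT replicate 3 alone, where 2.02% and 1.95% of all genes tested were called. Itgam, which encodes CD11b, was lower, with 193, 181 and 155 CPM in WT and 113, 134 and 109.7 CPM in cKO (log2 fold change -0.57, SE 0.15, adjusted p = 0.0341), and Cebpb was lower as above. The higher ones were the IgG receptor gene Fcgr1 (43.2, 7.63 and 10.6 CPM in WT and 169.8, 112 and 82.8 CPM in cKO, log2 fold change 2.57, SE 0.61, adjusted p = 0.0194), the receptor tyrosine kinase gene Axl (log2 fold change 1.56, SE 0.38, adjusted p = 0.0237) and Nr1h3. Of 15 genes of the monocyte stage tested, 4 were higher, and none was lower, with a median log2 fold change of 0.72. The median was 0.01 and none was called without WT replicates 2 and 3. Among the higher genes were Plbd1 (3.46, 3.06 and 4.2 CPM in WT and 16.7, 15.7 and 21.9 CPM in cKO, log2 fold change 2.34, SE 0.43, adjusted p = 0.00532) and Ms4a4c (3.49). Plac8 and Ly6c2 were at or below 0.152 CPM in WT and had 6.93, 1.44 and 1.26 and 0.64, 1.92 and 1.75 CPM in cKO. In bulk libraries, a change in the share of one kind of cell and a change of RNA per cell cannot be told apart. Of the neutrophil list 6 genes were tested, and only the G-CSF receptor gene Csf3r was called (36.8, 38.7 and 42.3 CPM in WT and 75.5, 68.7 and 82.7 CPM in cKO, log2 fold change 0.95, SE 0.15, adjusted p = 0.00183). No gene was called of 8 tested in the dendritic cell, 3 in the T and NK cell, 2 in the mast cell, basophil and eosinophil, 5 in the erythroid and megakaryocyte and 18 in the stromal list. DESeq2 called none of them either, and 2 of the erythroid and megakaryocyte genes and none of the others had an unadjusted p under 0.05. Of 6 B lineage genes, Cd22 was higher (1.67) and Ighm lower (-3.69).

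Genes of alternative activation, the programme driven by interleukin-4, were lower in 4 of 8 tested, with a median log2 fold change of -1.26 and none higher. The C-type lectin gene Clec10a had 36.9, 39.2 and 41.8 CPM in WT and 15.2, 9.37 and 9.6 CPM in cKO, a log2 fold change of -1.78 (SE 0.24, adjusted p = 0.00061). Its relative Mgl2 had 2.53, 1.27 and 1.87 CPM in WT and 0.747, 0.481 and 0.351 CPM in cKO, a log2 fold change of -1.80 (SE 0.45, adjusted p = 0.0266). The others were the transcription factor gene Egr2 (-1.36) and Socs2 (-1.35). All 4 had cKO libraries below the WT libraries. The number called was 2 without WT replicate 2, 1 without WT replicate 3, where 0.97% of all genes tested were lower, and 0 without both, with a median of -1.20 in the last of these fits. Immediate early genes, which are induced within minutes by many stimuli, were lower in 5 of 22, with a median of -0.65. Without WT replicates 2 and 3 none was called and the median was -0.43, while 10 were lower when the 6 libraries were fitted alone and 11 by DESeq2. Fosb, a subunit of AP-1, had 919, 1156 and 1310.3 CPM in WT and 425, 474 and 481 CPM in cKO (log2 fold change -1.29, SE 0.22, adjusted p = 0.0028), Junb a log2 fold change of -0.96 and Klf4 of -0.84. Among 8 osteoclast genes the integrin gene Itgb3 (17.7, 70.6 and 46.1 CPM in WT and 4.59, 6.33 and 4.35 CPM in cKO, log2 fold change -3.14, SE 0.84, adjusted p = 0.0345) and the gelatinase gene Mmp9 (log2 fold change -2.07, SE 0.48, adjusted p = 0.0185) were lower. Itgb3 was highest in WT replicates 2 and 3. Of these 8 genes 1 was lower without WT replicate 2 (0.903% of all genes tested) and none without WT replicate 3 (0.97%).

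Of 24 sterol synthesis genes none was called by edgeR, with 7 at an unadjusted p under 0.05, and their median was -0.40. DESeq2 called 1 of them, as higher, and a fit of the 6 libraries alone called 7, all lower. Of 18 genes of lipid uptake and efflux, 4 were higher and 1 was lower, with a median of -0.07 (0.02 without WT replicates 2 and 3). Without WT replicate 2 alone 1 of them was higher (1.12% of all genes tested were higher in that fit). Several are targets of the liver X receptors, which turn on cholesterol efflux. The transporter gene Abcg1 had 89.5, 92.3 and 76.7 CPM in WT and 216, 212 and 234 CPM in cKO, a log2 fold change of 1.36 (SE 0.19, adjusted p = 0.000913), and Abca1 had 329, 125 and 214 CPM in WT and 507, 543 and 572 CPM in cKO (log2 fold change 1.28, SE 0.36, adjusted p = 0.046). Nr1h3, which encodes LXRα, had 5.32, 2.68 and 3.24 CPM in WT and 10.2, 12.3 and 13 CPM in cKO (log2 fold change 1.66, SE 0.48, adjusted p = 0.0495). The lipid droplet protein gene Plin2 had 497, 491 and 447 CPM in WT and 1629, 1487 and 1793 CPM in cKO (log2 fold change 1.77, SE 0.46, adjusted p = 0.0312). In all 4 the cKO libraries were above the WT libraries. The lower gene was Nr1h2, which encodes LXRβ (-0.45). Of 19 genes of fatty acid synthesis, the acetyl-CoA carboxylase genes Acacb (log2 fold change 2.14, SE 0.37, adjusted p = 0.00367) and Acaca (0.75) were higher, while the phosphatidate phosphatase gene Lpin1 and Dgat1 (-0.69) were lower. Lpin1 had 44.6, 98.8 and 77.1 CPM in WT and 16.2, 18 and 17.1 CPM in cKO (log2 fold change -2.10, SE 0.54, adjusted p = 0.0277). Of 17 sphingolipid synthesis genes only Sptssa, a small subunit of serine palmitoyltransferase, was called (62.9, 56.8 and 60 CPM in WT and 40.2, 45 and 35.2 CPM in cKO, log2 fold change -0.58, SE 0.15, adjusted p = 0.0302). Of 12 complement genes C1qb and C1qc were higher (0.89 and 0.80) and Cd55 was lower (-2.06), with a median of 0.82. The complement median was 0.11 without WT replicates 2 and 3, and a fit of the 6 libraries alone called 0 higher and 1 lower. C1qb had 881, 383 and 462 CPM in WT and 1078, 1169 and 945 CPM in cKO. Of the lysosomal genes Gusb and Scarb2 were higher (0.60 and 0.46). Of 24 genes of glycolysis and hypoxia, Vegfa (log2 fold change -1.37, SE 0.28, adjusted p = 0.00889) and Ero1l (-0.73) were lower. None of 7 mitochondrially encoded genes was called by edgeR or DESeq2 or had an unadjusted p under 0.05, and of 12 housekeeping genes Gusb was.

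**Figure D4:**
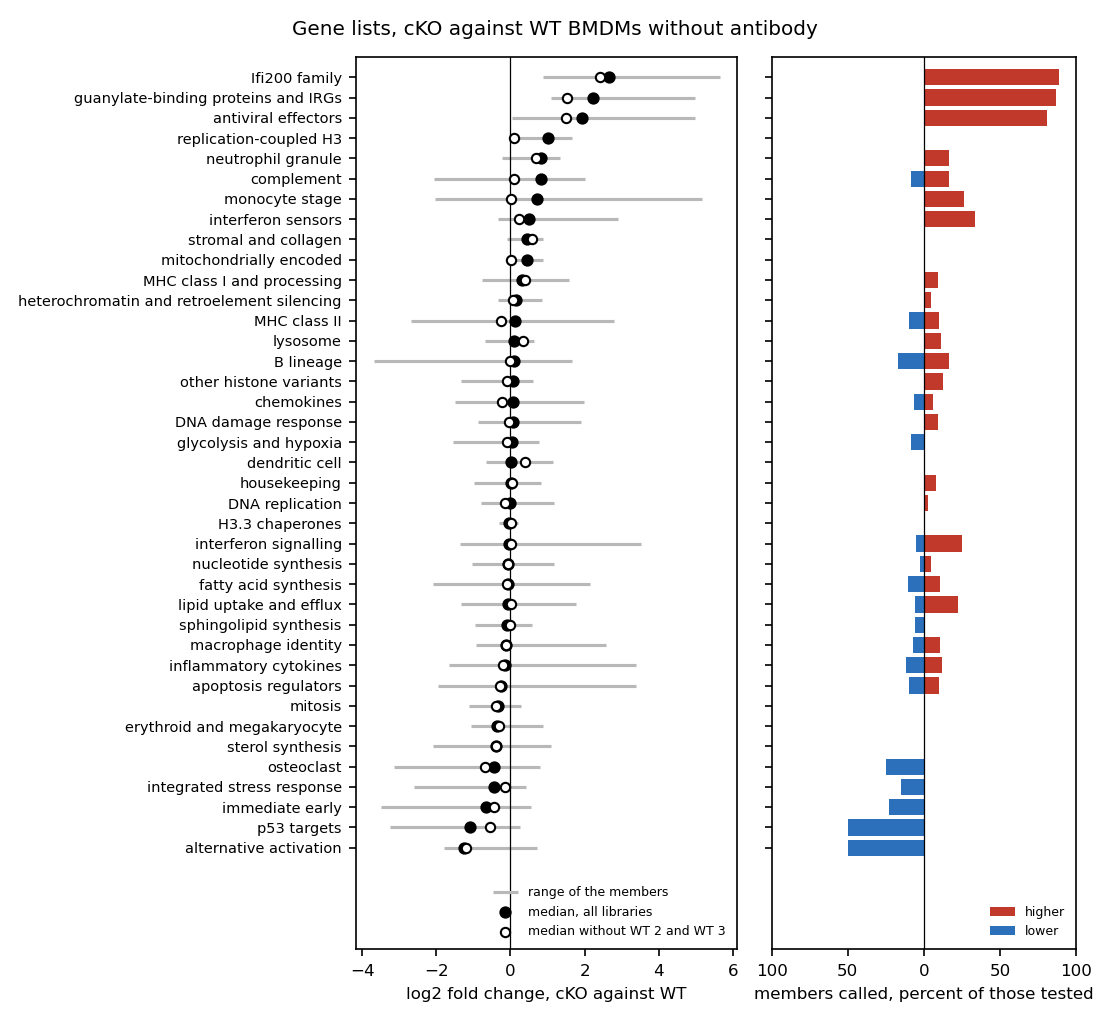
Gene lists with 5 or more genes tested. Left, range of the log2 fold changes of the members (grey), their median with all libraries (filled) and without WT replicates 2 and 3 (open), and right, the percentage of tested members called higher (red) or lower (blue). The 3 lists with the highest medians are interferon-stimulated families, and p53 targets and alternative activation genes have the lowest.

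Several of the largest changes were of genes outside these lists. By the rule for large and well-expressed changes, Ly6a, which encodes the surface protein Sca-1, rose the most, with 6.25, 0.8 and 1.01 CPM in WT and 111, 79.5 and 47.3 CPM in cKO (log2 fold change 4.89, SE 0.87, adjusted p = 0.00415). Mcoln3, a cation channel of endosomes, had 4.91, 3.67 and 3.39 CPM in WT and 32.7, 30 and 59.3 CPM in cKO (log2 fold change 3.35, SE 0.42, adjusted p = 0.000392). The log2 fold changes of Ly6a and Mcoln3 were 3.65 and 3.04 without WT replicates 2 and 3. In the WT day 8 libraries interferon-γ changed them by 5.14 and -0.94 on the log2 scale, so Ly6a counts among the genes it raised. The pseudogenes Atp6v0c-ps2 (3.68) and Gm1966 (3.35) were also on this list, and their reads may be shared with related genes. Among lower genes were the microtubule-binding protein gene Psrc1 (32.2, 124 and 73.2 CPM in WT and 9.6, 10.4 and 8.48 CPM in cKO, log2 fold change -3.01, SE 0.73, adjusted p = 0.0218), the RNA-binding protein gene Rbpms (log2 fold change -2.65, SE 0.39, adjusted p = 0.00128) and the peptide transporter gene Slc15a2 (log2 fold change -2.50, SE 0.54, adjusted p = 0.0125). Psrc1 was highest in WT replicate 2, whereas the WT libraries were close together for Rbpms and Slc15a2.

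Several genes outside the interferon lists, chosen after their values were seen, had small adjusted p-values. Atp1b3 (chr9:96332655-96364442), a β subunit of the sodium pump, had 221, 204 and 200.2 CPM in WT and 1722, 1723 and 1854 CPM in cKO, a log2 fold change of 3.08 (SE 0.12, adjusted p = 6.68e-10). Hgsnat (chr8:25944453-25976753), a lysosomal acetyltransferase, had 166, 148 and 142 CPM in WT and 1294, 888 and 1029 CPM in cKO, a log2 fold change of 2.81 (SE 0.20, adjusted p = 1.39e-06). The groups were far apart for both genes, with log2 fold changes of 2.99 and 2.67 without WT replicates 2 and 3. In the WT day 8 libraries interferon-γ changed Atp1b3 by 1.95 and Hgsnat by 0.11 on the log2 scale. Atp1b3 thus counts among the genes raised by interferon-γ, although it is outside the interferon lists. The neighbours of Hgsnat on chromosome 8 were higher as well, Pomk (chr8:25980604-25994133) with 22.5, 13.5 and 14.2 CPM in WT and 163, 90.1 and 99.5 CPM in cKO (log2 fold change 2.81, SE 0.29, adjusted p = 0.000106) and Fnta (chr8:25998722-26015650) with 41.2, 29.8 and 29.9 CPM in WT and 71.6, 155 and 211 CPM in cKO (log2 fold change 2.12, SE 0.49, adjusted p = 0.0176). Genes that overlap or adjoin cannot be fully separated in counts made without strand. The noncoding Gt(ROSA)26Sor (chr6:113067428-113077333) had 17.1, 22.7 and 17.1 CPM in WT and 5.28, 4.65 and 4.56 CPM in cKO (log2 fold change -1.97, SE 0.25, adjusted p = 0.000425). On chromosome 9, the ribosomal protein gene Rpl29 (chr9:106429454-106431568, 114, 178 and 81.3 CPM in WT and 25.9, 22.1 and 24.5 CPM in cKO, log2 fold change -2.36, SE 0.40, adjusted p = 0.00303) and Pcbp4 (chr9:106453291-106464012, log2 fold change -2.65, SE 0.34, adjusted p = 0.000472) were both lower. The log2 fold changes without WT replicates 2 and 3 were 2.38 for Pomk, 1.81 for Fnta, -1.83 for Gt(ROSA)26Sor, -2.24 for Rpl29 and -2.63 for Pcbp4. Fnta was called in 2 of the 6 fits without 1 library, and the other genes of this paragraph so far in all 6. Within 10 megabases on either side of Lyz2, 3 of 102 genes tested were higher and 2 were lower, or 4.9%, where 7.06% of all genes tested were called. The 2 lower genes were Lyz2 itself and the p53 target gene Mdm2.

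The same contrast was measured in the control antibody and IFNAR1 antibody libraries, which stand in the same model. Same-numbered libraries of 1 genotype mostly resembled each other across arms, as seen in Fnta with 71.6, 155 and 211 CPM in cKO without antibody, 90.4, 183 and 222 CPM with control antibody and 57, 236 and 296 CPM with IFNAR1 antibody. Deviations from the group means, for replicates 1, 2 and 3, correlated between no antibody and control antibody by 0.192, 0.125 and 0.36 in WT and by 0.289, 0.0734 and 0.274 in cKO across genes. Libraries with different numbers correlated by -0.255 to -0.0389 in WT and by -0.287 to 0.0201 in cKO. Between no antibody and IFNAR1 antibody, same-numbered libraries correlated by -0.269, 0.707 and 0.128 in WT and by 0.414, 0.308 and 0.385 in cKO. Those with different numbers correlated by -0.751 to 0.684 in WT and by -0.402 to 0.0756 in cKO. In WT only 1 of these 3 libraries correlated best with its own number, while all 3 did in cKO. The arms are therefore not taken as independent of each other, and the labels do not say whether cultures were shared. The model counts the 18 libraries as separate. With control antibody 488 genes were higher in cKO (2.84%) and 264 lower (1.54%), and with IFNAR1 antibody 82 were higher (0.477%) and 32 lower (0.186%). Genes higher in both the cells without antibody and those with control antibody numbered 249, which is 42.9% of the former and 51.0% of the latter, and 141 were lower in both (22.3% and 53.4%). With IFNAR1 antibody 74 higher genes were shared (12.8% and 90.2%) and 25 lower genes (3.95% and 78.1%). No gene (0.0%) differed in its cKO effect between the cells without antibody and those with control antibody in edgeR's quasi-likelihood test, where 1252 genes had an unadjusted p under 0.05 and DESeq2 called 31. Against IFNAR1 antibody 1 gene, Pxylp1, differed (0.00582%), with 725 at an unadjusted p under 0.05 and 3 called by DESeq2, and its call was lost with a replicate block. In simulated data 7% of differences of 1 on the log2 scale were recovered in each of these comparisons, and 76% and 73% of differences of 2. Differences of 1 between arms were thus mostly not detectable. The simulation gave all genes and libraries the same spread (dispersion 0.069), whereas the WT libraries differed more than the cKO libraries. These shares may therefore be too high for these data. Ly6a differed by 3.29 (SE 1.19) between no antibody and IFNAR1 antibody and was not called.

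By list, 25 of 32 antiviral effectors were higher with control antibody (median log2 fold change 2.09) and 16 with IFNAR1 antibody (1.81), against 26 without antibody (1.94). Of the 9 genes of the Ifi200 family, 9 and 4 were higher with these antibodies, and of the 15 GTPases 11 and 4. Stat2 gave a log2 fold change of 1.57 (SE 0.22, adjusted p = 0.000676) with control antibody and 0.57 (SE 0.21, adjusted p = 0.318) with IFNAR1 antibody. Its difference between no antibody and IFNAR1 antibody was 1.40 with an unadjusted p of 0.00028, and the adjusted p was 0.994 in edgeR's quasi-likelihood test. The p53 targets had smaller median changes in these arms, with 1 of 28 lower and a median of -0.31 with control antibody and none lower and a median of -0.41 with IFNAR1 antibody. The summed level of the p53 targets with IFNAR1 antibody was 8074, 6260 and 3223 CPM in WT and 6413, 3187 and 3072 CPM in cKO, so that WT replicate 3 was at the level of cKO replicates 2 and 3, and cKO replicate 1 was above WT replicate 2. The sterol synthesis genes, with 1816, 2214 and 658 CPM in WT and 1811, 583 and 535 CPM in cKO, had the same 2 libraries at the level of the other genotype. The part of these libraries in the small number of calls with IFNAR1 antibody was not tested. Phlda3 had log2 fold changes of -1.64 (SE 0.46, adjusted p = 0.0548) and -1.81 (SE 0.46, adjusted p = 0.102). Alternative activation genes had medians of 0.04 and -0.32, and Clec10a, lower without antibody, had 0.03 (SE 0.24, adjusted p = 0.982) with control antibody. Differences between the arms in single genes of these lists did not pass the test.

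A further 3 sets of WT and cKO BMDMs lie outside the antibody experiment, and each has 3 WT and 3 cKO libraries. The labels do not say whether the sets were handled together. Counts of sets 1 and 2 list 55536 genes, and those of set 3 and of the antibody experiment list 54146. Same-numbered libraries of sets 1 and 3 resembled each other as well, with correlations of the deviations of 0.63, 0.605 and 0.16 in WT and 0.434, 0.0839 and 0.363 in cKO, so these sets may not be separate cultures. In the 3 sets, H3f3a was lower in cKO as well, with log2 fold changes of -2.84, -2.37 and -2.82, but H3f3b was not called, at -0.26, -0.33 and -0.29. The cKO effect on H3f3b differed by -2.66 (SE 0.20, adjusted p = 3.07e-08) between the cells without antibody and the mean of the 3 sets, while that on H3f3a differed by -0.19 (adjusted p = 0.59). Across genes, 1904 had a more positive cKO effect here than in the sets (10.3% of 18568) and 1969 a more negative one (10.6%). The number fell from 3873 to 3323 with same-numbered libraries of sets 1 and 3 summed, to 2379 without WT replicate 2 and to 775 without WT replicates 2 and 3. Libraries of sets 1 and 3 had almost no Xist (at most 0.0897 CPM), unlike those of set 2 and of the cells without antibody. The loss of H3f3b, the experiment and, for sets 1 and 3, sex cannot be told apart in this comparison.

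Of the antiviral effectors 24, 21 and 21 of 32 were higher in sets 1, 2 and 3 (13.9%, 6.39% and 13.5% of all genes), with medians of 1.08, 1.0 and 0.89. The effect was more positive without antibody than in the sets for 18 of 32 antiviral effectors, 3 of 9 Ifi200 genes and 7 of 15 GTPases, and it was more negative for Gbp8. Ifit3 had log2 fold changes of 1.46, 1.36 and 1.24 in the sets, and the difference was 2.57 (SE 0.66, adjusted p = 0.011). For Irf7 the difference missed the threshold, at 1.41 (SE 0.50, adjusted p = 0.0549). The p53 targets had medians of -0.12, 0.20 and -0.07 in the sets, and 21 of 28 had a more negative effect and 1 a more positive effect without antibody, among them Phlda3 with a difference of -3.05 (SE 0.43, adjusted p = 0.000137). Sterol synthesis genes had medians of -1.06, -1.29 and -1.13 in the sets, and 14 of 24 had a more positive effect without antibody. Atp1b3 was higher in each set, by 1.67, 0.59 and 1.5, whereas Hgsnat was called in none of them. In sets 1 and 3, cKO replicate 3 was above the WT libraries for Hgsnat, with 157, 175 and 712 CPM against 233 to 314 CPM in WT of set 1 and 137, 164 and 561 CPM against 221 to 270 CPM in set 3, while the other cKO libraries were below them. Pomk had the same order, with 125 and 91.1 CPM in these 2 libraries.

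**Figure D5:**
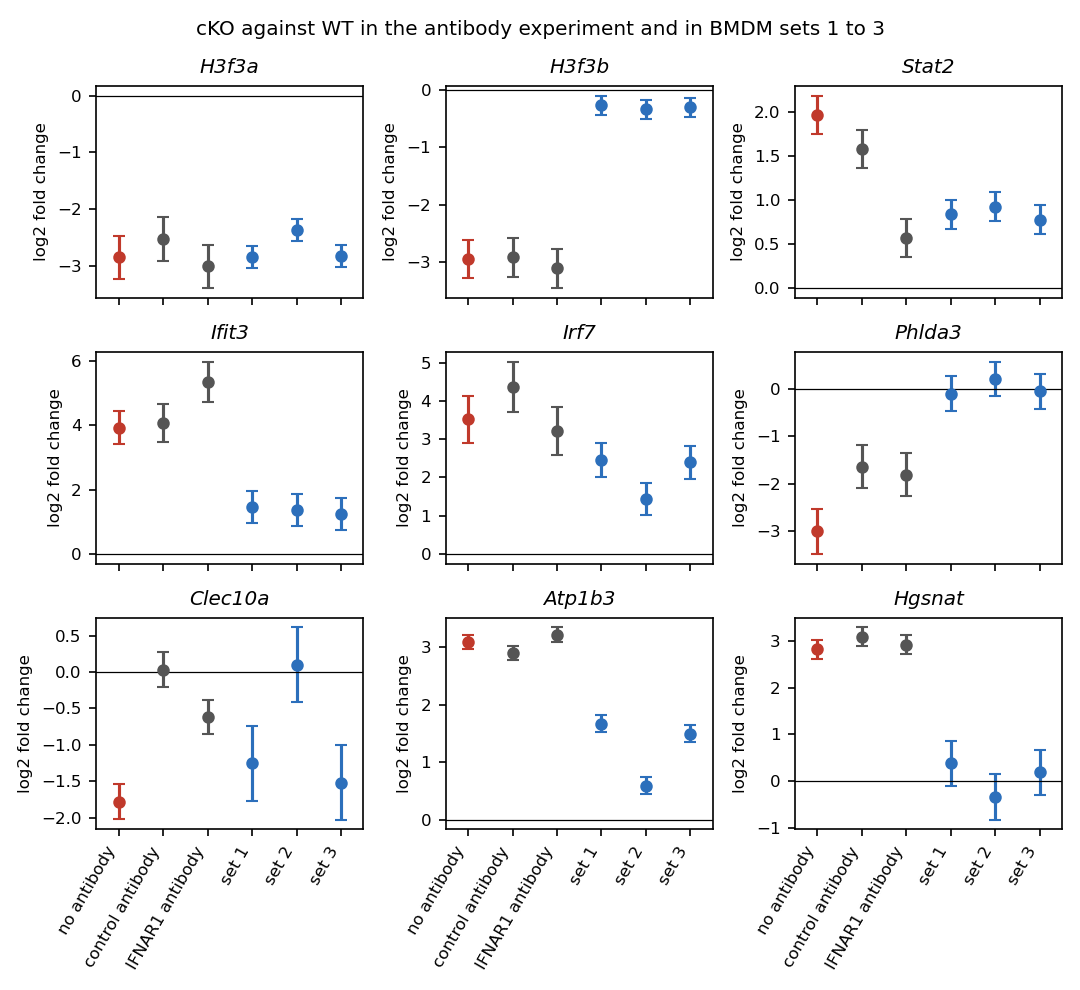
Log2 fold change of cKO against WT for 9 genes, with SE bars, in the cells without antibody (red), with control or IFNAR1 antibody (grey) and in BMDM sets 1 to 3 (blue), each from 3 WT and 3 cKO libraries. H3f3a falls in all 6 comparisons. H3f3b was called in the 3 arms of the antibody experiment and in none of the sets, and the same holds for Hgsnat, which has wide SE bars in the sets, with 1 high cKO library in each of sets 1 and 3.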

How the data were processed

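RNA-seq counts per gene of 42 of the 81 libraries were used as the authors deposited them, that is, as whole-number STAR gene counts. Per the submitters' notes and the methods of the study, adapters were removed with Cutadapt and paired-end reads aligned to mouse genome mm10 with STAR, with versions not given in the sources used here. The other libraries enter no comparison here. The study itself tested RSEM values, which are not used here. The unstranded count column was taken, the lines that name no gene were left out, and for the 6 libraries without antibody these held 8.42% to 10.2% unmapped, 7.12% to 9.82% multimapping, 23.9% to 26.6% no-feature and 4.13% to 4.47% ambiguous fragments.

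All 18 libraries of the antibody experiment were fitted in 1 model with edgeR 4.0.16 (robust quasi-likelihood, TMM, limma 3.58.1, R 4.3.3) after the filter on low counts (at least 10 per library in the smallest group and 15 in all), which left 17191 of 54146 genes. P-values were adjusted by Benjamini-Hochberg over all genes tested, and adjusted p under 0.05 made a call. SE is the log2 fold change divided by the root of F. Differences from 3 further sets of BMDMs and the interferon-γ effect came from separate fits of the same kind. In simulated data for cKO against WT without antibody, over 16591 genes, 29% of changes of 1 and 99% of changes of 2 on the log2 scale were recovered. The simulation gave all genes and libraries the same spread (dispersion 0.069), so it does not hold the wider spread of the WT libraries.

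Genes were named by rule: H3f3a, H3f3b and Lyz2; the 10 largest changes in each direction among called genes whose libraries do not overlap and whose log2 CPM averages 3 or more; up to 5 called members per list, or else the first 2; and genes the study names. Others were chosen after their values were seen. The comparison and the gene lists were chosen with earlier results of these data known. Alternatives were DESeq2 1.42.0, RLE scaling, other filters, the strand-specific column, a replicate block, the 6 libraries alone, and fits without 1 library, and, chosen after seeing the data, fits without WT replicates 2 and 3, with a block for each replicate number of each genotype, and with same-numbered libraries of BMDM sets 1 and 3 summed. No libraries were duplicates within sampling noise. The counts do not use strand, so overlapping and antisense genes cannot be told apart, and fragments of near-identical genes may be split between them. Some genes are not reported here.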

Additional observations from a re-analysis of the deposited data

Results flagged for a closer look

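The cKO effect of 1 gene, Pxylp1, a phosphatase of proteoglycan synthesis, differed between the cells without antibody and those with IFNAR1 antibody, by 2.15 on the log2 scale (adjusted p = 0.042, by edgeR).

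For 3873 genes the cKO effect without antibody differed from the mean effect in the 3 further sets of BMDMs. For H3f3b the difference was -2.66 (adjusted p = 3.07e-08). Among the interferon-stimulated genes chosen for their large change, the effect was more positive without antibody by 1.29 for Oasl1 (adjusted p = 0.036), 2.57 for Ifit3 (0.011), 2.91 for Cmpk2 (0.000744), 2.07 for Gbp9 (0.000502) and 2.44 for Rtp4 (0.000983). A more negative effect was found for Itgb3 at -2.48 (adjusted p = 0.0035), Phlda3 at -3.05 (0.000137), Psrc1 at -2.27 (0.000226), Rbpms at -2.35 (0.000233), Gdf15 at -1.75 (0.0147) and Vldlr at -1.27 (0.0134). Among genes chosen after their values were seen, the differences were 1.82 for Atp1b3 (adjusted p = 7.93e-07), 2.73 for Hgsnat (0.00368), 2.94 for Pomk (0.00453), 1.92 for Fnta (0.000255), -0.88 for Rpl29 (0.0258), 1.58 for the phosphatase gene Ppm1h near Lyz2 (1.61e-07), 1.2 for the carbonyl reductase gene Cbr2 (0.024) and 0.95 for Actb (0.0239). The experiment, the degree of H3f3b deletion and, for sets 1 and 3, the sex of the cells cannot be told apart in these differences.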

How the results depend on the processing

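The 117 named genes that were called kept their direction under every alternative in which they were tested. Every alternative used libraries that had made the calls, so this tests little. Of these genes, 117 of 117 stayed called with DESeq2 and with RLE scaling and 111 of 111 with a mean of at least 1 CPM. The number was 109 with the strand-specific column, 102 with the 6 libraries alone, 88 with no filter on low counts and 68 to 115 without 1 library. The number of calls, 1213, became 2206 with DESeq2 (1055 higher and 1151 lower), 805 with no filter (373 higher), 639 with an absolute log2 fold change of at least 1 (340 higher and 299 lower) and 25 without WT replicates 2 and 3 (12 higher and 13 lower). Without 1 library it lay between 346 and 2911, with 174 to 1544 higher and 146 to 1367 lower genes, and the highest values are those without WT replicate 1. DESeq2 and the strand-specific column gave 31 and 1 genes for the difference from control antibody. For the difference from IFNAR1 antibody DESeq2 gave 3 genes, no filter, the strand-specific column and the fit without WT replicates 2 and 3 each gave 0, and leaving out 1 library gave 0 to 1. The difference from the BMDM sets held 1438 genes with a log2 size of at least 1, 775 without WT replicates 2 and 3 and 2379 to 6130 without 1 library. H3f3a had -2.54 without WT replicates 2 and 3 and then missed the threshold. The share of higher genes raised by interferon-γ was 23.1% with the stricter limit. The cause of these changes was not tested.

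Same-numbered WT and cKO libraries did not deviate together (correlations -0.109, -0.21 and 0.124), so the numbers were not taken to pair libraries. A fit with that number as a replicate block gave 600 higher and 631 lower genes, 113 of the 117 named genes stayed called, and the difference from IFNAR1 antibody gave 0 genes. With a replicate block within each genotype, the difference from control antibody gave 0 genes (1468 at an unadjusted p under 0.05, by edgeR) and that from IFNAR1 antibody 0 (840).

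Log2 fold changes near 0 of genes that were not called changed sign. Without WT replicates 2 and 3 they were 0.0070 for Ubn1, -0.072 for Hist1h3b, -0.11 for Ifnk, 0.53 for Itgax, -1.0 for Gata2, -0.061 for mt-Nd2, -0.13 for Setdb2 and -0.093 for Mavs. With the strand-specific column they were 0.072 for Hira and 0.94 for S100a8. Without 1 library at a time they ranged from -0.16 to 0.043 for Hira, -0.055 to 0.78 for Ifnk, -0.18 to 0.050 for Mcm3, -0.72 to 0.68 for S100a8, -0.57 to 1.38 for Gata2, -0.16 to 1.252 for Col1a1, -0.27 to 1.03 for Col1a2, -0.31 to 0.020 for Tk1 and -0.22 to 0.027 for Uprt. The cKO libraries had 11809833 to 17686952 counts on genes, and 36955 of the 54146 genes were too low to be tested.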

Other observations

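In windows of 2 megabases with at least 8 genes tested, 255 of 753 windows held no called gene, and the median share of genes called was 5.88%. The following 3 were chosen after their values were seen. On chromosome 19 between 34 and 36 megabases, 6 of 16 genes were higher and 3 were lower (56.2%), among them the Ifit genes and, lower, the death receptor gene Fas. On chromosome 14 between 58 and 60 megabases 5 of 9 genes were higher, with Phf11a, Phf11b and Phf11d, relatives of a PHD finger gene. On chromosome 1 between 172 and 174 megabases, which holds the Ifi200 family, 10 of 34 were higher and 1 was lower.

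By kind of gene, 518 of 12674 protein-coding genes tested were higher and 546 lower, 27 of 1170 pseudogenes were higher and 23 lower, and 35 of 3339 other RNA genes were higher and 64 lower.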
